A study of Mus musculus with 67 samples.

Results

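Morulae of the light group were compared with morulae of the control group, 6 libraries against 13, which are 19 of the 67 samples of the series. The members were taken from the sample titles, by stage and by group. The embryos were C57BL/6 mouse embryos made by in vitro fertilization. At the 2-cell stage the light group had been held for 6 h under a full-spectrum bulb at 5000 lx, after which culture went on in the dark. The control group was kept in the dark throughout, and both were left to reach the morula. RNA was amplified by SMART-seq2, which copies polyadenylated RNA of a single cell over its full length. The paper describes cells picked by hand from dissociated embryos, whereas the labels give each library an embryo number. Which libraries share an embryo, a litter or a day was not given, so p-values measure only the spread between these samples, which may in part be technical. The p-values are too small if libraries of a group share an embryo. If a library held several cells, fewer cells of a type and less RNA per cell cannot be told apart.

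The morula is the stage at which blastomeres flatten against each other, take on polarity and begin to divide into an outer population, which forms the trophectoderm, and an inner one, which keeps pluripotency. Its genome is active and most RNA inherited from the oocyte has been removed. Strong visible light can raise reactive oxygen species in cultured cells. Cells answer these through the NRF2 programme of antioxidant genes, and damage to DNA through p53, a transcription factor that turns on genes of cell cycle arrest and cell death. Ribosomal protein genes supply the protein part of the ribosome and are among the most strongly transcribed genes of the cleaving embryo.

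Levels are given as CPM, reads counted relative to a common library total. A pair of overlapping genes of ribosomal RNA, Gm42418 with CT010467.1, was left out of that total. Light libraries had 1824496 to 5765625 reads in all and control libraries 3373581 to 6281954, of which 71.0% to 80.7% and 57.9% to 84.6% were on that pair. The reads left for other genes were 466903 to 1639959 and 683775 to 1624607, and they set the precision of every level below. The group means of this depth did not differ beyond their spread (exact permutation test over 27132 regroupings, two-sided, p = 0.441, adjusted over 5 library measures 0.472). The ratio of Gm42418 to CT010467.1 reads did, with 1.49 to 1.67 in light and 2.34 to 4.14 in control libraries and no overlap (exact permutation test, adjusted p = 0.000184, where the p before adjustment, 3.69e-05, is the smallest possible). At equal depth, 10413 to 12349 genes were detected in light libraries and 9701 to 11601 in control libraries (exact permutation test, adjusted p = 0.00101). The mitochondrial share of reads was 3.33% to 5.19% in light and 2.59% to 4.40% in control libraries (exact permutation test, adjusted p = 0.0476). Since these measures moved with the groups, a difference in how the groups were prepared and an effect of light cannot be told apart.

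The libraries carried a marker of pluripotency and little RNA of oocyte genes. Pou5f1, which encodes the pluripotency factor OCT4, had 446 to 709 CPM in light and 332 to 784 CPM in control libraries. Other pluripotency genes were lower: Nanog had 0 to 39.9 CPM in light and 6.48 to 548 CPM in control libraries. Sox2 had 0 to 1.77 CPM in light and 0 to 29.7 CPM in control libraries. Summed, 20 pluripotency genes had 5727 to 7933 CPM in light and 5705 to 9150 CPM in control libraries. The summed level of 25 oocyte genes was 380 to 747 CPM in light and 336 to 1081 CPM in control libraries, against 10177 to 19416 CPM in the control libraries of the 2-cell stage. Control libraries of the 8-cell stage had 583 to 979 CPM and those of blastocysts 357 to 558 CPM, so this level does not set morulae apart from the neighbouring stages. Whether both groups were at the same point of the morula stage was not tested. Of 9 cumulus and granulosa cell genes in the table, 7 were at 0 in every light library and 5 in every control library. The remaining members were not silent. Summed, the 9 genes had 113 to 320 CPM in light and 180 to 528 CPM in control libraries, against 25.9 to 125 CPM in the control libraries of the 2-cell stage. Control libraries of the 8-cell stage had 181 to 521 CPM of these genes, much as in morulae, and those of blastocysts 82.6 to 124 CPM. Light library 9 stood apart in sex-linked RNA: its Y-linked genes summed to 143 CPM, against at most 2.04 CPM in any other morula library, and Xist was at 34.3 CPM, where the control libraries had 182 to 2881 CPM. It also had the fewest reads outside the rRNA pair, and named genes whose call was lost without it are given with and without it.

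Of 16169 genes tested, 257 (1.59%) differed between the groups by at least 2-fold at an adjusted p under 0.05 (limma). There were 137 higher (0.847%) and 120 lower (0.742%) in light. No overlap between the groups was seen in 15 of the higher and 46 of the lower genes, where 83 of all genes tested (0.513%) did not overlap. The split between higher and lower depended on the scale: it was 54 to 124 on the deposited scale, 90 to 230 after quantile normalization, 151 to 87 by edgeR and 86 to 323 by DESeq2. The median log2 fold change of all genes was 0.25 on the scale used here, 0.10 on the deposited scale and 0.0088 after quantile normalization. Of the 120 genes called lower, 58 were called without any one of the 19 libraries, and of the 137 called higher, 24.

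**Figure D1:**
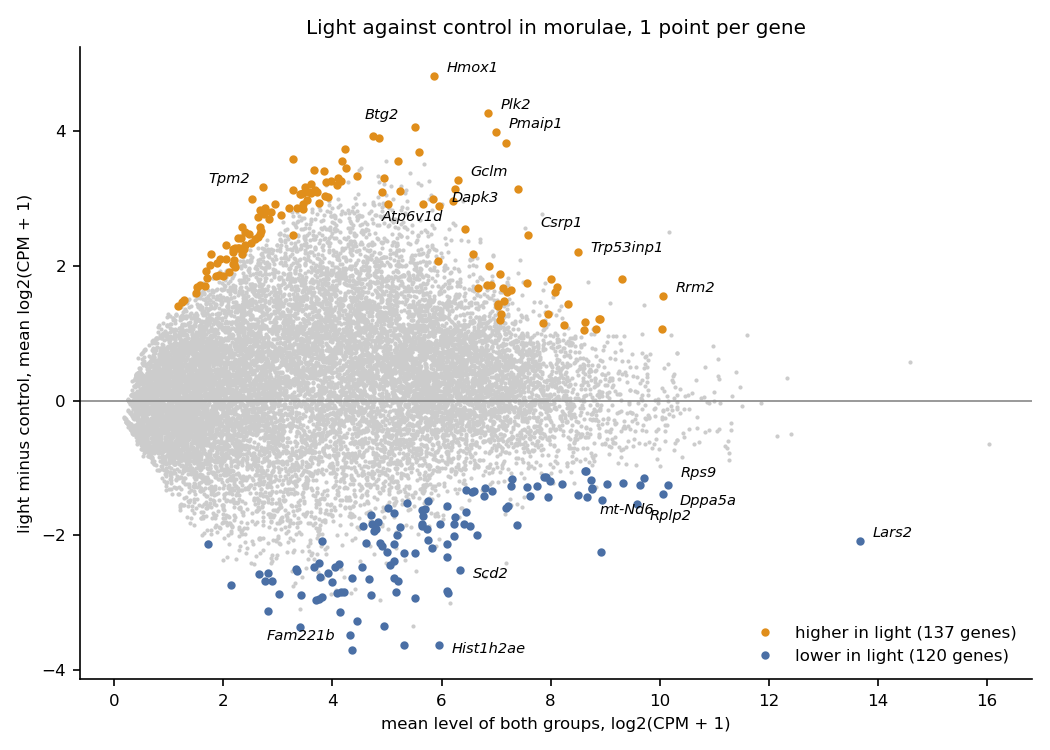
Each point is 1 of 16169 genes, with the mean level of both groups on the horizontal axis (log2 of CPM plus 1) and the difference between the light and control means on the vertical axis (same scale). The 137 genes called higher are orange and the 120 called lower blue, and grey genes did not pass; calls among abundant genes include Rrm2 above and Rps9, Rplp2 and Lars2 below the line, while most calls above it lie at low levels.

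The largest rise among named genes was that of Hmox1 (chromosome 8, 75093621 to 75100589, GRCm38), which encodes heme oxygenase 1, a classical target of NRF2 that degrades heme. Light libraries had 2.04, 110 and 196 CPM as lowest, median and highest level, and control libraries 0, 0 and 46.4 CPM. All light libraries but 1 lay above every control library, the exception being light library 1. The log2 fold change was 4.82 (SE 0.99, adjusted p = 0.0104 from limma). The call was kept without any one library, by edgeR and on the deposited scale, and was not made by DESeq2. Gclm, the modifier subunit of the enzyme that limits glutathione synthesis, had 91.8, 107 and 195 CPM in light and 0, 23.5 and 78.2 CPM in control libraries. The groups did not overlap, and the log2 fold change was 3.27 (SE 0.86, adjusted p = 0.0444 from limma), a call lost by leaving out any of 10 libraries, light library 9 among them (3.17 and adjusted p = 0.0861 without it, limma), and not made by edgeR, by DESeq2 or on the deposited scale. These were the genes called among 35 antioxidant and glutathione genes tested (5.71%, where 0.847% of all genes were called higher), which had a median log2 fold change of 0.65 beside 0.25 for all genes, with 29 members above 0. Nfe2l2, which encodes NRF2 itself, had 42.6 CPM as the light and 27.3 CPM as the control median, and its log2 fold change of 0.82 (SE 0.98, adjusted p = 0.702 from limma) did not pass. In a region of 300 bases around the RefSeq start of Gclm, the letters TGACNNNGC, a core of the antioxidant response element, were present on one of the strands, as in 14.8% of the promoters of 10258 tested genes. This is a description of letters, not a site.

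Of 29 genes of the p53 list tested 4 were called, all higher (13.8%, where 0.847% of all genes were called higher), and in each of these 4 light library 9 had the lowest light level. Pmaip1, which encodes the cell death protein NOXA, had 32.1, 210 and 420 CPM in light and 0, 15.5 and 94.4 CPM in control libraries, a log2 fold change of 3.98 (SE 0.95, adjusted p = 0.0262 from limma). Btg2, an antiproliferative gene, had 2.14, 80.01 and 140 CPM in light and 0, 0 and 103 CPM in control libraries (log2 fold change 4.05, SE 1.04, adjusted p = 0.0381 from limma). Plk2, a polo-like kinase of the cell cycle, had 2.14, 218 and 377 CPM in light and 0, 1.29 and 150 CPM in control libraries (log2 fold change 4.26, SE 1.13, adjusted p = 0.0463 from limma). Light library 9 lay inside the range of the controls in each of them. So did light library 12 in Plk2, and light libraries 12, 1 and 5 in Btg2. Trp53inp1, which encodes a stress protein that modifies p53 activity, had 79.2 CPM in light library 9 and 564 to 774 CPM in the remaining light libraries, against 22.0 to 253 CPM in the controls. Its log2 fold change was 2.21 (SE 0.52, adjusted p = 0.0244 from limma).

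The median log2 fold change of the list was 1.07, beside 0.25 over all genes, and 24 members were above 0, where 9906 of all 16169 genes were. Without light library 9 the number called was 5, the fifth being Ccng1, and the list median 1.45. Without any one of the other light libraries it was 0 or 1, so the number called depends on single libraries in this group. By edgeR and by DESeq2 it was 2, both higher. On the deposited scale 2 were called higher and 1 lower, the last being Tigar, a phosphatase of sugar metabolism. Ccng1, the cyclin G1 gene, had 293, 691 and 1272 CPM in light and 86.2, 270 and 726 CPM in control libraries (log2 fold change 1.44, SE 0.39, adjusted p = 0.0512 from limma). Mdm2, which encodes the ubiquitin ligase that degrades p53, had medians of 146 and 43.9 CPM (log2 fold change 1.80, SE 0.62, adjusted p = 0.115 from limma). Cdkn1a, the p21 inhibitor of cyclin-dependent kinases, had medians of 666 and 364 CPM (0.62, SE 0.43, adjusted p = 0.468 from limma), and Trp53 128.6 and 83.1 CPM (0.99, SE 0.53, adjusted p = 0.333 from limma). Bax, a pore-forming death effector, pointed the other way, with medians of 66.5 CPM in light and 127 CPM in control libraries (log2 fold change -0.96, SE 0.33, adjusted p = 0.115 from limma).

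**Figure D2:**
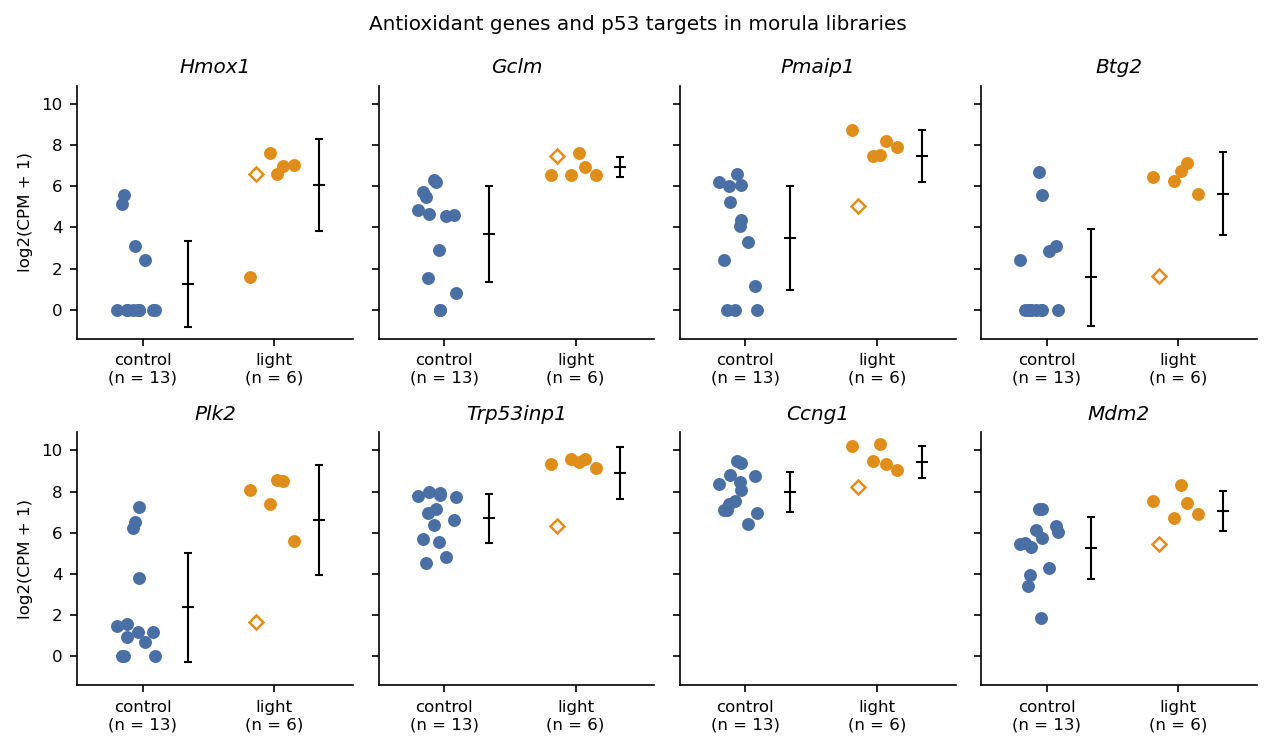
Each point is 1 library and the vertical axis is log2 of CPM plus 1, for 13 control (blue) and 6 light (orange) morula libraries; the bar gives the mean and the SD. The open diamond is light library 9, which lies with the controls in Pmaip1, Btg2, Plk2, Trp53inp1, Ccng1 and Mdm2 and with the other light libraries in Hmox1 and Gclm, and 1 other light library is low in Hmox1. Further light libraries also lie inside the range of the controls in Btg2, Plk2, Ccng1 and Mdm2.

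Other stress and death genes had few calls. Of 35 apoptosis genes tested 1 was called, Pmaip1 (2.86%, where 0.847% of all genes were called higher), and the list median was 0.62, beside 0.25 over all genes. None of 32 heat shock chaperones, 27 genes of the unfolded protein response, 16 immediate early genes or 19 clock genes was called by limma, while at an unadjusted p under 0.05 there were 14, 5, 3 and 2 of them higher and 2, 1, 1 and 0 lower, where 12.0% of all genes were higher and 5.64% lower at that p. Hspa8, the constitutive HSP70 chaperone, had 3923, 4998 and 8980 CPM in light and 2968, 4370 and 5624 CPM in control libraries, and its log2 fold change of 0.33 (SE 0.14, adjusted p = 0.207 from limma) did not pass. Of the opsin genes, which encode light-sensing receptors, 1 passed the filter on low levels and the summed level of the 4 in the table was at most 4.27 CPM in light and 16.4 CPM in control libraries.

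Among 77 genes of DNA damage signalling and repair, 2 were called, both higher (2.60%, where 0.847% of all genes were called higher). The median log2 fold change was 0.59, beside 0.25 over all genes, with 64 members above 0, where 9906 of all 16169 genes were. Neil1, a glycosylase that removes oxidized bases, was at 0 in all 13 control libraries and at 0, 7.04 and 27.8 CPM in the light libraries. Against a floor of 3 reads over the control group its mean was at least 44.1-fold higher in light (adjusted p = 0.0244 from limma), a call lost without light library 12, 5 or 9 (adjusted p = 0.058 from limma without library 9). Chek2, the checkpoint kinase that relays double-strand breaks to p53, had 114, 236 and 275 CPM in light and 32.3, 58.4 and 203 CPM in control libraries (log2 fold change 1.61, SE 0.39, adjusted p = 0.0275 from limma). In 4 light libraries the level lay above every control, and the call was not made on the deposited scale or without light library 12, 1, 3 or 5. Mbd4, a glycosylase that removes thymine from mismatches and which was named after its values were seen, had 6.11, 34.1 and 49.3 CPM against 0, 1.00 and 18.6 CPM (3.46, SE 0.82, adjusted p = 0.0264 from limma). Its call was lost without light library 12, 3, 5, 6 or 9 (3.29 and adjusted p = 0.0575 without library 9, limma) and was not made by edgeR or DESeq2. An antisense gene overlaps its exons, and whether the counting used strand was not given in the sources used here.

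Ribosomal protein genes were lower in light morulae. Of 88 tested 6 were called, all lower (6.82%, where 0.742% of all genes were called lower), and with no limit on the fold 20 were lower and 0 higher at an adjusted p under 0.05, where 0.909% of all genes were lower and 0.903% higher. In 9 of the 88, all lower, no overlap was seen between the groups, against 0.396% of all genes. The median log2 fold change was -0.49, beside 0.25 for all genes, and 82 of the 88 were below 0. Over every scaling tried, including the deposited one, 76 to 87 were below 0 and 6 to 11 were called lower, with 0 called higher. Summed, the ribosomal protein genes held 4.90%, 5.13% and 5.87% of the reads outside the rRNA pair in light libraries and 5.27%, 7.09% and 9.03% in control libraries, with 1 control library, number 21, inside the light range.

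Rps9, a protein of the small subunit, had 554, 661 and 847 CPM in light and 1183, 1616 and 2157 CPM in control libraries, a log2 fold change of -1.26 (SE 0.15, adjusted p = 6.51e-05 from limma). Rps16, also of the small subunit, had 320, 493 and 648 CPM against 834, 1172 and 1381 CPM (-1.25, SE 0.17, adjusted p = 0.000242 from limma). Of the large subunit, Rplp2, an acidic stalk protein, had 258, 378 and 538 CPM against 682, 1066 and 1782 CPM (-1.53, SE 0.19, adjusted p = 8.16e-05 from limma). The groups did not overlap in any of these genes. Rpl38 fell from 432, 692 and 1068 CPM to 133.5, 280 and 409 CPM (-1.47, SE 0.22, adjusted p = 0.000471 from limma), again without overlap. Rpl27a and Rps12, the other called members, had log2 fold changes of -1.40 and -1.27. All 6 were called without any one of the 19 libraries. Ribosomal protein genes have many processed copies in the genome, so reads can be divided between a gene and its pseudogenes in ways that depend on the counting.

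The RNA of these genes is known to begin with a run of pyrimidines, the 5′ terminal oligopyrimidine motif, through which the protein LARP1 binds it. The bases around the RefSeq start are shown for the 6 called genes, from 10 bases before to 20 bases from the start on, with the longest run of C and T in capitals (GRCm38.p6, transcribed strand).
Rps9, chr7:3704031-3704060, plus strand: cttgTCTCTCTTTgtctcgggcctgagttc
Rplp2, chr7:141447641-141447670, plus strand: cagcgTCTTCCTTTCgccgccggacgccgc
Rps16, chr7:28350679-28350708, plus strand: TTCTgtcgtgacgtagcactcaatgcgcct
Rpl38, chr11:114668570-114668599, plus strand: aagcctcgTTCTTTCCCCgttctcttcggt
Rpl27a, chr7:109519185-109519214, plus strand: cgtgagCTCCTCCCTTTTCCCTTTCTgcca
Rps12, chr10:23787190-23787219, minus strand: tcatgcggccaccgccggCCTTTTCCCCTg
A run of at least 8 was present in 5 of these 6 windows, in 22 of the 63 ribosomal protein genes with an entry (34.9%) and in 10.6% of the 10258 tested genes with one. Such a run was present in 2 of 34 genes called lower outside the list (5.88%). The counts took a run anywhere in the window, and that of Rps12 began only at base 9 from the start on. In the window of Rps16 the longest run was 4. Of other genes whose RNA carries this motif, Eef1a1, elongation factor 1 alpha, had 1462, 1773 and 2270 CPM in light and 2283, 3084 and 4071 CPM in control libraries, with no overlap, and its difference of -0.78 (SE 0.12, adjusted p = 0.000471 from limma) passed the p but not the fold. Npm1, the nucleolar protein nucleophosmin, was alike at -0.88 (SE 0.13, adjusted p = 0.000471 from limma), and Rack1 and Fau at -0.64 (adjusted p = 0.0347 and 0.0291 from limma). Eef2, elongation factor 2, was at -0.04 (SE 0.14, adjusted p = 0.913 from limma), and after quantile normalization or without light library 6 it was above 0. Eef1g, a further elongation factor subunit, had 535, 641 and 731 CPM in light and 373, 630.1 and 757 CPM in control libraries, was at 0.10 (SE 0.19, adjusted p = 0.817 from limma), and lay below 0 on the deposited scale. Pabpc1, a poly(A)-binding protein, was at -0.62 (SE 0.18, adjusted p = 0.0716 from limma) and did not pass. Larp1 itself had 86.6, 257 and 442 CPM in light and 348, 561 and 828 CPM in control libraries (-1.31, SE 0.27, adjusted p = 0.0104 from limma), and Pabpc4, a cytoplasmic poly(A)-binding protein, 186, 441 and 485 CPM against 630, 856 and 1206 CPM (-1.22, SE 0.19, adjusted p = 0.000761 from limma). These genes, which are not on the list of ribosomal protein genes, were named after their values were seen.

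**Figure D3:**
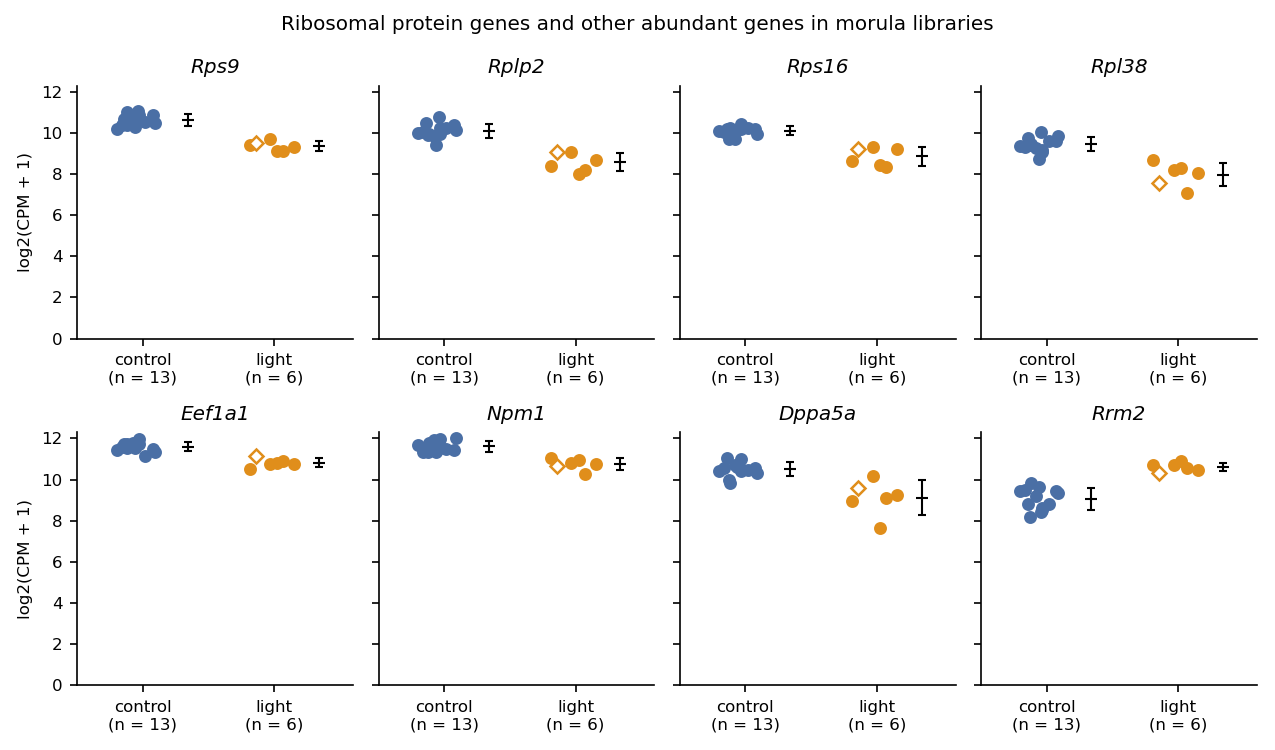
Each point is 1 morula library and the vertical axis is log2 of CPM plus 1, with the mean and SD at the side; the open diamond is light library 9. The 6 light libraries (orange) lie under all 13 control libraries (blue) in Rps9, Rplp2, Rps16, Rpl38, Eef1a1 and Npm1, 5 of them do so in Dppa5a, and in Rrm2 all 6 lie above the controls.

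The difference in ribosomal protein genes was compared with that at the neighbouring stages in a fit over all 3, with 8 light and 4 control libraries at the 8-cell stage and 6 and 3 blastocyst libraries. In that fit the median log2 fold change of 89 ribosomal protein genes was 0.16 at the 8-cell stage, -0.49 in morulae and 0.56 in blastocysts, where all genes tested had 0.04, 0.17 and 0.00. At the 8-cell stage 3 were called higher and 0 lower, where 3.04% of all genes were higher and 3.36% lower. In blastocysts 10 were higher and 0 lower, against 0.633% and 1.27% of all genes, and in morulae 0 were higher and 7 lower, against 2.54% and 1.6%. The light effect in morulae was called lower than that at the 8-cell stage for 10 of the 89, where 1.09% of 19604 genes tested were, and lower than that in blastocysts for 24, where 0.76% were (interaction terms, limma). For Rps16 the light effect was 0.37 at the 8-cell stage, -1.25 in morulae and 1.10 in blastocysts, a difference of -1.62 from the 8-cell stage (adjusted p = 0.000845 from limma) and -2.35 from blastocysts (adjusted p = 2.45e-05 from limma). The 2 differences share the morula libraries. Control libraries held more of these genes in morulae (5.27% to 9.03% of reads) than at the 8-cell stage (2.52% to 3.67%) or in blastocysts (1.69% to 2.23%), and light blastocysts spread from 1.71% to 4.89%.

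**Figure D4:**
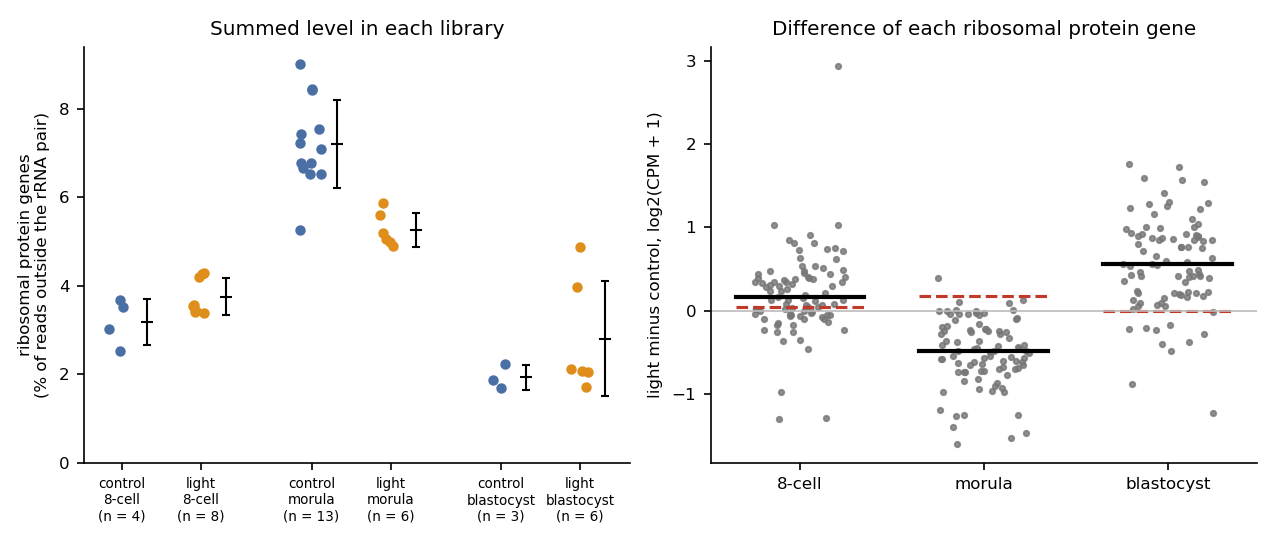
Left, the summed share of ribosomal protein genes in each library (% of reads outside the rRNA pair) by group and stage, with the mean and SD. Right, the light minus control difference of each of 89 ribosomal protein genes (log2 of CPM plus 1), with their median as a black line and the median of all genes tested as a dashed red line; the black line lies under the dashed line in morulae (-0.49 and 0.17) and above it at the other stages.

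Short transcripts had a lower median difference than long ones. Of 369 protein-coding genes with an exon length under 1 kb, ribosomal protein genes left out, 11 were called, all lower (2.98%, where 52 of 12150 protein-coding genes and 0.742% of all genes were called lower), and their median log2 fold change was -0.09. Of 6710 protein-coding genes over 4 kb, 61 were called higher and 24 lower, with a median of 0.42, beside 0.37 over all protein-coding genes. Annotated pseudogenes made up 60 of the 120 genes called lower and 1 of the 137 called higher, and the median over the 1766 tested was -0.56. Among 137 pseudogenes named for a ribosomal protein, 12 were lower and 0 higher, with a median of -1.16. The median exon length was 753 bases for genes called lower and 3702 bases for those called higher. Ribosomal protein genes had a median exon length of 1730 bases, all annotated transcripts joined, and the part of transcript length in their difference was not tested.

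Nuclear genes of oxidative phosphorylation had 3 calls among 85, all lower (3.53%, where 0.742% of all genes were called lower): Cox8a and Cox6b1, subunits of cytochrome oxidase, and Uqcrq, a subunit of complex III. Cox6b1 had 91.5, 144 and 196 CPM in light and 213.5, 322 and 493 CPM in control libraries, with no overlap (-1.13, SE 0.24, adjusted p = 0.0114 from limma). The list median was -0.13, beside 0.25 over all genes. None of 76 mitochondrial ribosomal protein genes was called by limma. At an unadjusted p under 0.05, 5 of these were lower and 0 higher, where 5.64% of all genes were lower and 12.0% higher. The 3 called transcripts have annotated exon lengths of 619, 708 and 1831 bases. Cox8a was not called without light library 3 or control library 16, nor Uqcrq without light library 3 or 5. Of 13 proteins encoded by mitochondrial DNA, 12 lay below 0 with a median of -0.60. mt-Nd6, the complex I subunit read from the other strand than the rest, had 150, 222 and 289 CPM in light and 318, 611 and 946.5 CPM in control libraries (-1.44, SE 0.23, adjusted p = 0.000974 from limma) and mt-Nd3 was called as well (-2.50, adjusted p = 0.0481 from limma), a call lost without any of 16 libraries (-2.22 and adjusted p = 0.106 without light library 9, limma). mt-Cytb and mt-Nd4 were lower by less than 2-fold (-0.60 and -0.68, adjusted p = 0.00755 and 0.0227 from limma), while the mitochondrial ribosomal RNA mt-Rnr2 had 24355, 28097 and 38189 CPM in light against 13638, 20586 and 26590 CPM, 0.58 higher (SE 0.11, adjusted p = 0.0074 from limma). The transfer RNA mt-Te was called lower (-2.92, adjusted p = 0.0197 from limma), but not by edgeR or without light library 12.

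Lars2, the mitochondrial leucyl-tRNA synthetase (chromosome 9, 123366927 to 123462666, GRCm38), had the most reads of the genes called, with 2786, 3810 and 10038 CPM in light and 6104, 18065 and 45806 CPM in control libraries. Its log2 fold change was -2.09 (SE 0.30, adjusted p = 0.00038 from limma), and 5 light libraries lay under every control, library 9 being the exception. Gm15564, an antisense gene of chromosome 16, moved likewise (-2.25, SE 0.36, adjusted p = 0.000773 from limma). The ratio of the rRNA pair is given beside them at the other stages. At the 8-cell stage the ratio was 1.52 to 1.71 in light and 2.01 to 2.34 in control libraries, and Lars2 differed by -2.13 and mt-Nd6 by -2.25. In blastocysts the ratio was 1.29 to 1.75 and 1.42 to 1.45, and Lars2 and mt-Nd6 each differed by -0.13. The part of ribosomal RNA carried into the libraries in the level of Lars2 was not tested.

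Genes of lineage showed few calls. Dppa5a, an RNA-binding protein of pluripotent cells, was the call among 18 pluripotency genes (5.56%, where 0.742% of all genes were called lower). It had 199, 583 and 1155 CPM in light and 915, 1508 and 2149 CPM in control libraries (-1.39, SE 0.24, adjusted p = 0.00153 from limma). All light libraries but 1 lay under every control. At the 8-cell stage Dppa5a was higher in light by 1.11 (adjusted p = 0.0112 from limma), and the light effect in morulae differed from it by -2.49 (adjusted p = 1.92e-05 from limma). Nanog, a factor of the inner cell mass, had 0, 11.5 and 39.9 CPM in light and 6.48, 73.0 and 548 CPM in control libraries, and its log2 fold change of -3.01 (SE 0.83, adjusted p = 0.0554 from limma) did not pass, though it was called lower on the deposited scale, after quantile normalization and by DESeq2. Tdgf1, a co-receptor of Nodal, had medians of 46.1 and 175 CPM (-1.68, SE 0.53, adjusted p = 0.0877 from limma), and Pou5f1 of 623 and 497 CPM (0.20, SE 0.21, adjusted p = 0.653 from limma).

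None of 19 trophectoderm genes was called by limma, and their median log2 fold change was 0.86, beside 0.25 over all genes. At an unadjusted p under 0.05, 5 were higher and 1 lower, where 12.0% of all genes were higher and 5.64% lower. Cdx2 had medians of 46.8 CPM in light and 51.6 CPM in control libraries, Gata3 212 and 181 CPM, and Krt18 300.2 and 72.8 CPM. Their log2 fold changes of 0.86, 1.53 and 1.46 had standard errors of 1.04, 1.198 and 0.80 and adjusted p of 0.702, 0.527 and 0.343 (limma), and those of Cdx2 and Gata3 were below 0 by edgeR and DESeq2. Control libraries ranged from 0 to 199 CPM in Cdx2 and from 0 to 920 CPM in Gata3. The 11 primitive endoderm genes tested had a median log2 fold change of -0.55, beside 0.25 over all genes, with 5 members above 0 and 6 below. Amn, an endocytic co-receptor of visceral endoderm, was the call among these 11 (9.09%, where 0.847% of all genes were called higher). It had 2.04, 9.27 and 38.6 CPM against 0, 0 and 17.3 CPM (2.76, SE 0.67, adjusted p = 0.029 from limma). It was not called by edgeR, DESeq2 or on the deposited scale, nor without light library 12, 5, 6 or 9 (2.36 and adjusted p = 0.0644 without library 9, limma). None of 20 Hippo genes, 31 genes of compaction and junctions or 9 genes of the blastocoel pump and channels was called by limma. At an unadjusted p under 0.05, 2, 6 and 0 of them were higher and 0, 1 and 0 lower, where 12.0% of all genes were higher and 5.64% lower.

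In the cell cycle, Rrm2, the subunit of ribonucleotide reductase that makes deoxyribonucleotides for DNA synthesis, was higher in every light library than in any control. It had 1257, 1584 and 1909 CPM in light and 290.5, 578 and 898 CPM in control libraries (1.56, SE 0.22, adjusted p = 0.000309 from limma) and was named after its values were seen. At the 8-cell stage it was higher in light as well, by 2.54 (adjusted p = 1.88e-07 from limma), and its effect in morulae was not called different from that (-0.99, adjusted p = 0.22 from limma). Of 41 cell cycle and replication genes 1 was called, Cdc20 (2.44%, where 0.847% of all genes were called higher). It encodes the activator of the anaphase-promoting complex and had 402, 493 and 1389 CPM against 137, 275 and 569 CPM (1.21, SE 0.30, adjusted p = 0.0341 from limma). The call was lost on the deposited scale and without light library 1, 3 or 6 or control library 12. Ccnb1, cyclin B1, had medians of 598 and 365 CPM and did not pass (0.96, SE 0.34, adjusted p = 0.127 from limma).

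Histone cluster genes, which are short, made in S phase and mostly not polyadenylated, had 2 calls among 46, both lower (4.35%, where 0.742% of all genes were called lower), and a median log2 fold change of -0.62, beside 0.25 over all genes. Hist1h2ae had 0, 6.94 and 34.8 CPM in light and 0, 78.8 and 285 CPM in control libraries (-3.62, SE 0.87, adjusted p = 0.0286 from limma), the ranges overlapped, and the call was lost without light library 12, 1 or 5. Hist1h2ao had 0, 1.22 and 9.52 CPM against 1.85, 19.3 and 49.0 CPM (-2.96, SE 0.71, adjusted p = 0.0275 from limma), a call not made by edgeR and lost without light library 12, 5 or 9 (-2.71 and adjusted p = 0.0612 without library 9, limma). Histone genes of a cluster are near copies, so reads may be shared between them. Trim28, a co-repressor recruited by zinc-finger proteins to silence retrotransposons and seen here after its values were known, had 232, 296 and 441 CPM in light and 475, 666 and 1390 CPM in control libraries (-1.24, SE 0.21, adjusted p = 0.00188 from limma). Of 321 zinc-finger genes named Zfp 4 were called, all higher (1.25%, where 0.847% of all genes were called higher), and the list median was 0.55. Zfp472 had 10.5, 18.97 and 44.5 CPM in light and 0, 0.782 and 10.2 CPM in control libraries, with no overlap (3.13, SE 0.73, adjusted p = 0.0244 from limma), a call not made by edgeR or DESeq2 or without light library 3. Zfp334 was at 0 in every control library and its light mean was at least 23.6-fold higher against a floor of 3 reads over that group, and Zfp251 and Zfp934 had log2 fold changes of 3.26 and 2.17. The calls of the last 3 were each lost by leaving out any of at least 15 libraries. Without light library 9, Zfp251 was at 3.02 (adjusted p = 0.0964 from limma) and Zfp334 was under the filter on low levels.

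V-ATPase subunits, of the proton pump that acidifies lysosomes, were looked at after their values were seen. Of 18 tested, 3 were called, all higher and none overlapping (16.7%, where 0.847% of all genes were called higher and 0.118% were higher without overlap), and the median was 0.82, beside 0.25 over all genes. Since the list was chosen for these values, its counts are a description. Atp6v1d had 108.5, 146 and 162 CPM in light and 1.85, 29.3 and 102 CPM in control libraries (2.54, SE 0.58, adjusted p = 0.021 from limma). Atp6v1c1 and Atp6v1e1 had log2 fold changes of 1.75 and 1.88 (adjusted p = 0.0134 and 0.0197 from limma), and on the deposited scale only Atp6v1d was called among them. Atp6v1e1 was not called without light library 12. Among 27 autophagy genes 1 was called, Atg9a (3.70%, where 0.847% of all genes were called higher). This scramblase of autophagosome growth had medians of 383 and 108 CPM (1.80, SE 0.46, adjusted p = 0.0361 from limma). The call was lost on the deposited scale and without any of 8 libraries (1.68 and adjusted p = 0.0846 without light library 9, limma). Scd2, a desaturase of fatty acids, was the call among 27 genes of sterol and fatty acid synthesis (3.70%, where 0.742% of all genes were called lower). It had 6.10, 16.6 and 90.3 CPM in light and 27.1, 122 and 297 CPM in control libraries (-2.52, SE 0.51, adjusted p = 0.00866 from limma). Srsf2 was the call among 73 splicing factors (1.37%, where 0.847% of all genes were called higher). Its log2 fold change was 1.07 (SE 0.22, adjusted p = 0.0118 from limma). It was not called by edgeR or DESeq2, on the deposited scale or without control library 2.

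The other genes with the largest rises included structural and signalling genes. Csrp1, a LIM protein of the actin cytoskeleton, had 156, 338 and 379 CPM in light and 8.77, 55.3 and 148 CPM in control libraries (2.45, SE 0.46, adjusted p = 0.005 from limma), with no overlap. At the 8-cell stage its difference was larger, 6.35 (adjusted p = 3.24e-11 from limma), and the effects differed by -3.90 (adjusted p = 0.0005 from limma). Dapk3, a kinase of cell death and myosin, had 64.3, 112 and 147 CPM against 0, 19.4 and 37.2 CPM (2.89, SE 0.66, adjusted p = 0.0202 from limma), with no overlap, and was not called without light library 3. Tpm2, a tropomyosin, had 1.19, 9.38 and 24.1 CPM in light and at most 1.26 CPM in control libraries (3.17, SE 0.49, adjusted p = 0.00069 from limma). Aff4, a scaffold of the super elongation complex, had 159, 257 and 568 CPM against 0.782, 39.998 and 209 CPM (3.13, SE 0.74, adjusted p = 0.0262 from limma), a call lost without light library 12, 5, 6 or 9 (3.11 and adjusted p = 0.0516 without library 9, limma). Sowahc, C2cd2 and Map6d1 had log2 fold changes of 3.07, 2.92 and 2.42 at medians of 12.1, 9.59 and 8.59 CPM in light and 0 CPM in control libraries. The call of Map6d1 was lost without any of 7 libraries, light library 9 among them (2.04 and adjusted p = 0.0841 without it, limma), and was not made by DESeq2. Slc6a6, the taurine transporter, one of the genes that set the deposited size factors, was higher by 2.17 (SE 0.55, adjusted p = 0.0351 from limma), a call not made on the deposited scale or without any one of 5 light libraries, library 9 being the exception.

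Among the largest falls, Fam221b had 0, 3.33 and 6.77 CPM in light and 16.0, 32.9 and 71.0 CPM in control libraries (-3.48, SE 0.58, adjusted p = 0.00118 from limma), with no overlap, and its exons overlap those of Tmem8b on the other strand. Wdr89 had 21.8, 32.9 and 52.96 CPM against 64.8, 120.0 and 360.0 CPM (-1.84, SE 0.35, adjusted p = 0.00621 from limma), also with no overlap. Zmiz2, a coactivator with a SUMO ligase domain, had 3.54, 16.3 and 52.4 CPM against 17.6, 115 and 259 CPM (-2.86, SE 0.52, adjusted p = 0.00353 from limma). Bola1, a mitochondrial protein, Samd4b, an RNA-binding protein, and Tes, a focal adhesion protein, had log2 fold changes of -2.32, -1.9985 and -1.86, and in each of them the groups overlapped. Crebbp, the histone acetyltransferase CBP, named after its values were seen, had 122, 158 and 315 CPM against 226, 380 and 670 CPM (-1.24, SE 0.25, adjusted p = 0.0091 from limma).

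For the 257 genes called in morulae, the light effect was also compared with that of other stages, where the genes had been chosen on the morula contrast, so that a difference is easier to reach. It differed from the 8-cell stage in 34 of the 257, where 2.72% of 19604 genes did, and from blastocysts in 68, where 2.12% did (limma). Hmox1 had a light effect of 0.42 at the 8-cell stage and 0.37 in blastocysts, and its effect in morulae was not called different from either (4.40 and 4.45, adjusted p = 0.0709 and 0.115 from limma). The effect on Trim28 in morulae was -2.10 below that at the 8-cell stage (adjusted p = 0.000187 from limma), and that on Pabpc4 -2.07 below it (adjusted p = 1.7e-05 from limma).

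**Figure D5:**
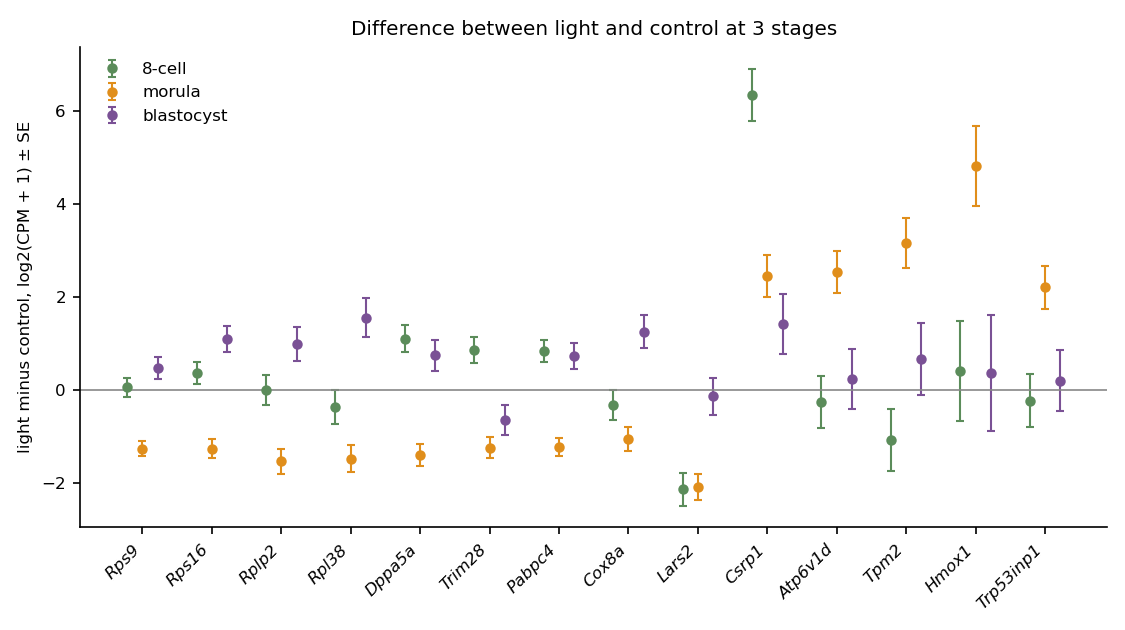
Light minus control difference (log2 of CPM plus 1) with its standard error from a fit over 3 stages, for 14 genes at the 8-cell stage (green), in morulae (orange) and in blastocysts (purple). Rps9, Rps16, Rplp2, Dppa5a and Pabpc4 lie below 0 in morulae alone, Lars2 lies near -2 in 8-cell embryos and morulae, and Csrp1 is highest at the 8-cell stage.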

How the data were processed

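RNA of 19 morula libraries (SMART-seq2, 6 light and 13 control, grouped by the labels) was analysed, with 21 libraries of the neighbouring stages for interaction terms. The submitters' processing notes name HISAT2, HTSeq 0.9.1 and mm9, while 99.7% of the 26414 symbols are those of GENCODE M21 (GRCm38), which was used for positions, lengths and biotypes. The authors deposited signal values, reads divided by a size factor of each library. The paper's methods give RPKM, but no division by length was found. Multiplied back, values were whole reads within 0.01 in 99.97% or more of each library, and 11 genes held a value that was not. The deposited size factors follow CT010467.1, Gm42418 and Slc6a6, so CPM over the reads outside the first 2 was computed here as the main scale. Cell counts per library, strand and batches were not given in the sources used here.

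Light was compared with control by limma 3.58.1 (lmFit, eBayes with trend, R 4.3.3) on log2 of CPM plus a pseudocount of 1, for genes above 1 CPM in at least 3 of the 19 libraries, with no covariate. This scale understates the change of low genes. Genes with a fold of at least 2 and a p under 0.05 after Benjamini-Hochberg adjustment were called. Library measures were compared by exact permutation tests. The test was checked on simulated data, where 23% of 200 genes given a 4-fold change were recovered and 4 unchanged genes were called. A gene that was not called can therefore still differ between the groups. Alternatives were the deposited, median ratio and TMM scales, quantile normalization, pseudocounts of 0.1 and 10, no filter or a mean above 5 CPM, edgeR 4.0.16 (quasi-likelihood) and DESeq2 1.42.0 on the recovered reads, library weights, thinning to 466903 reads, a block for replicate numbers, and leaving out each library. No molecular identifiers were used, and floors cover counting error only. Named genes were up to 10 with the largest rise and 10 with the largest fall among called genes with a mean of at least 10 CPM in a group that were also called on the deposited scale and by edgeR, predicted genes left out, up to 4 called genes of each list, fixed members of the lists described, and genes said to be named after their values were seen. Of the genes chosen by this rule, 1 is not reported here. The members and lists were chosen with earlier results of these data known. Start sequences are RefSeq's (GRCm38.p6).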

Additional observations from a re-analysis of the deposited data

Results flagged for a closer look

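In the 6 light libraries, 10 of 63 sets of values (58 named genes and 5 library measures) held a library far from the others by Dixon's test, where chance gives about 1 in 20. Light library 9 was high in Lars2 at 10038 CPM and low in Trp53inp1 at 79.2 CPM and in Srsf2 at 463 CPM. Light library 6 was high in Aff4 (568 CPM), Zmiz2 (52.4 CPM) and Crebbp (315 CPM), library 5 in Scd2 (90.3 CPM) and library 3 in Zfp472 (44.5 CPM). Light library 1 had the highest ratio of Gm42418 to CT010467.1 (1.67) and the fewest genes detected at equal depth (10413). Signal outside the comparison was found in Y-linked genes, which summed to 143 CPM in light library 9 and to at most 0.975 CPM in the control morulae.

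The light effect on some named genes differed between stages by an interaction term (limma, adjusted p under 0.05 and at least 2-fold). Against the 8-cell stage, the effect in morulae was higher by 4.24 on the log2 scale for Tpm2, 3.75 for Aff4, 5.60 for Sowahc, 2.80 for Atp6v1d, 4.70 for Amn, 5.32 for Neil1, 4.15 for Zfp251 and 4.58 for Mbd4. It was lower for Csrp1 (-3.90), Hist1h2ae (-5.85), Dppa5a (-2.49), Rps9 (-1.32), Rplp2 (-1.53), Rps16 (-1.62), Trim28 (-2.10) and Pabpc4 (-2.07). Against blastocysts it was higher for Aff4 (3.68), C2cd2 (5.04), Atp6v1c1 (1.95) and Mbd4 (4.32). It was lower for Bola1 (-3.07), Lars2 (-1.96), Dppa5a (-2.14), mt-Nd3 (-3.71), Cox8a (-2.31), Cox6b1 (-2.30), Uqcrq (-2.60), Rps9 (-1.73), Rplp2 (-2.52), Rps16 (-2.35), Rpl38 (-3.03), Pabpc4 (-1.95), Gm15564 (-2.28), Rpl27a (-2.17) and Crebbp (-1.52). These genes had been chosen on the morula contrast, which makes a difference easier to reach, and both sets of differences share the morula libraries.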

How the results depend on the processing

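The number of genes called (257) became 409 by DESeq2 and 572 with library weights, and with the replicate block 0 genes were called by limma, higher or lower, with 1600 at an unadjusted p under 0.05 and 2845 without the block. With the block the comparison rests on the 8 libraries with the numbers 1, 6, 9 and 12, which both groups have. Deviations of same-numbered libraries had correlations of -0.0612, -0.0119, -0.00333 and -0.017, and no light library was closest to the control of its own number. Whether same-numbered libraries shared a preparation was not given, and so few pairs cannot settle it. The 137 genes higher in light became 54 on the deposited scale, 90 after quantile normalization, 86 by DESeq2 and 365 with library weights. The 120 lower genes became 230, 323 and 207 under the last 3 of these. Leaving out 1 library gave 127 to 345 calls, 51 to 196 higher and 76 to 149 lower. Calls fell to 150, 127, 160 and 151 without light library 12, 3, 5 or 6, and the lower genes to 76 without library 3. The cause was not tested, other than that fewer samples were fitted. The 2 counts of differences between stages stayed within 1.5 times. Of the 58 named genes called, all kept their direction under every alternative in which they were tested. Apart from the replicate block and the fits without 1 library, 0 to 15 lost the call, most often on the deposited scale. Some of the 58 had been chosen for being called on the deposited scale and by edgeR, which fixed their outcome there. Of all 257 genes called, 158 were also called on the deposited scale and 137 by edgeR. Of genes that were not called, Cdx2 turned to -0.30, -0.28 and -0.82 and Gata3 to -0.30, -0.31 and -0.32 by edgeR, by DESeq2 and with the replicate block, Eef1g to -0.094 on the deposited scale, and Eef2 to 0.048 after quantile normalization, with -0.10 to 0.025 when 1 library was left out. Depth limits low genes: 1 read was worth more than 2 CPM in the shallowest light library, so single libraries at 0 cannot be read as absence.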

Other observations

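Other gene groups gave no calls in morulae. In 11 lists with 177 genes tested, 0 were called by limma, where 1.59% of all genes were. At an unadjusted p under 0.05, 19 were higher and 6 lower in light, where 12.0% of all genes were higher and 5.64% lower. These shares were not above those of all genes. The median log2 fold change was 0.55 over 16 glycolysis genes, 0.22 over 47 proteasome subunits and -0.08 over 26 RNA polymerase subunits. It was -0.15 over 15 imprinted genes expressed from the paternal copy, -0.14 over 12 expressed from the maternal copy and -0.05 over 21 genes of DNA methylation and Polycomb, beside 0.25 over all genes tested. Oocyte genes (21, median -0.20) and genes of the transient 2-cell programme (13, median 0.26) had 0 members at an unadjusted p under 0.05. The lists of X inactivation transcripts, cumulus cells and sperm had at most 3 genes above the filter on low levels.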
